A study of Mus musculus with 34 samples.

Results

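Genes encoding the protein subunits of the mitochondrial ribosome were followed across dendritic cells (DCs) of the mouse spleen. Members were the probe sets annotated to exactly 1 gene symbol that begins with Mrpl or Mrps and a digit, with the probe set of highest mean signal standing for its gene. This gave 71 genes, 43 Mrpl genes for the large subunit and 28 Mrps genes for the small subunit, of 22180 genes measured. Another 7 protein-coding genes with such symbols (Mrpl30, Mrpl33, Mrpl41, Mrpl43, Mrpl44, Mrpl53 and Mrps6) lie only on probe sets shared with other genes and were not analysed here.

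All cells were sorted by flow cytometry from spleens of C57BL/6 mice, and their RNA was amplified and hybridised to 34 arrays. Sorted CD8+ DCs, which specialise in cross-presenting antigen to CD8 T cells, were labelled Mst1/2-/- (4 arrays) or wild type (WT, 4 arrays), and sorted CD8- DCs, which mainly present to CD4 T cells, were labelled Mst1/2-/- (4) or WT (4). Mst1 and Mst2, encoded by Stk4 and Stk3, are the upstream kinases of the Hippo pathway. Total DCs were labelled Mst1/2-/- (3) or WT (4). Experiment 1 held anti-CD40 stimulated cells, treated with an antibody to a receptor that activates DCs. These were DCs labelled Rag1-/-/p38-/- (3) and Rag1-/- (4), both lacking Rag1 and given the antibody. Experiment 2 held anti-CD40 DCs labelled Rag1-/- (2) and WT (1), and non-stimulated Rag1-/- DCs (1). Rag1-/- mice lack mature T and B cells. The labels give neither the age of the mice, nor the promoter behind any conditional deletion, nor the number of animals behind a group. P-values therefore measure the spread between arrays, which may be technical.

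The mitochondrial ribosome translates the few proteins encoded by mitochondrial DNA, all of them subunits of the oxidative phosphorylation complexes. Its RNA comes from the mitochondrial genome, whereas its proteins are encoded in the nucleus, made in the cytosol and imported. Some of these proteins have bacterial homologues and others are specific to mitochondria. Structures of human and pig mitochondrial ribosomes place Mrps18a and Mrps30 in the large subunit despite their names, and the protein named Mrps36 belongs to the oxoglutarate dehydrogenase complex. Counts below follow the symbols.

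Promoter windows are shown for 4 members: Mrpl42 and Mrps27, which differed most between DC subsets in their subunit, and Mrpl57 and Mrps18b, which differed by genotype in CD8- DCs. Each window runs from 250 bases before to 50 bases after the start annotated in RefSeq on GRCm38.p6, read 5′ to 3′ along the gene. Capitals mark matches, on either strand, to motifs of the factors NRF1 (GCGC, any base, then TGCGC), ETS (CCGGAAG, bound by GABPA) or YY1 (AAGATGG).
Mrpl42 (chr10:95501900-95502199, minus strand): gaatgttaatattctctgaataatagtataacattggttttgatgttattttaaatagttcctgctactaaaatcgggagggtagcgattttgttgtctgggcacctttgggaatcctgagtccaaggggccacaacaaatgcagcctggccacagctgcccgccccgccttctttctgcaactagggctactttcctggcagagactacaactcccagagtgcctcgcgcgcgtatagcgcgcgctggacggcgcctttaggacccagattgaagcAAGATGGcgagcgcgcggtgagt
Mrps27 (chr13:99344536-99344835, plus strand): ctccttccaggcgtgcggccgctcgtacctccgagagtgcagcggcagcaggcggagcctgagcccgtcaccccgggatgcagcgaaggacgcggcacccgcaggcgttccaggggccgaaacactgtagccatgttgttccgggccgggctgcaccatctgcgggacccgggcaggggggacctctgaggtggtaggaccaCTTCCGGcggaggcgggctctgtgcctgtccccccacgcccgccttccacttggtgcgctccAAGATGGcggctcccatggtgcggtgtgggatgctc
Mrpl57 (chr14:57825989-57826288, plus strand): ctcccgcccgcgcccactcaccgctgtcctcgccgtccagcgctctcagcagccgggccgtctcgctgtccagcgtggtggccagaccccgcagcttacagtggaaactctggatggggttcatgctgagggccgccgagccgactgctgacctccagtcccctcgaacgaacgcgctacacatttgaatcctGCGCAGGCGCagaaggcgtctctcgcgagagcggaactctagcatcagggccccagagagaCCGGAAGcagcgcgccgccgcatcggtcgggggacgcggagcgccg
Mrps18b (chr17:35916391-35916690, minus strand): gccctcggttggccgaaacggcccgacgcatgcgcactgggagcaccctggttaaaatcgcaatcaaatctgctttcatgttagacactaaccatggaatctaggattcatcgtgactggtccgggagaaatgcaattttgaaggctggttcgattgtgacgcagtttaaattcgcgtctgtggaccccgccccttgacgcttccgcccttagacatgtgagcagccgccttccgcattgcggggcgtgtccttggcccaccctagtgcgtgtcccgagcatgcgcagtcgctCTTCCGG
The Mrpl42 window held a YY1 match, the Mrps27 window an ETS and a YY1 match, the Mrpl57 window an NRF1 and an ETS match, and the Mrps18b window an ETS match.

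NRF1, GABPA and YY1 are known regulators of nuclear genes for mitochondrial proteins. A window was listed for 62 of the 71 members and for 16990 of all measured genes. An ETS match lay in 22 of the 62 member windows (35.5%), against 11.7% of all windows. A YY1 match lay in 13 (21.0%), against 6.52%, and an NRF1 match in 11 (17.7%), against 6.72%. Any of these 3 motifs was present in 37 member windows (59.7%), against 22.3% of all windows. The E-box CACGTG was held by 8.06% of member windows and 8.18% of all windows, and the GC box GGGGCGGGG by 19.4% and 15.5%. Matches of different motifs overlapped in 0 member windows, and the median GC content was 58.2% in members and 56.3% in all windows. A match describes letters in the window and is not evidence of binding.

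**Figure D1:**
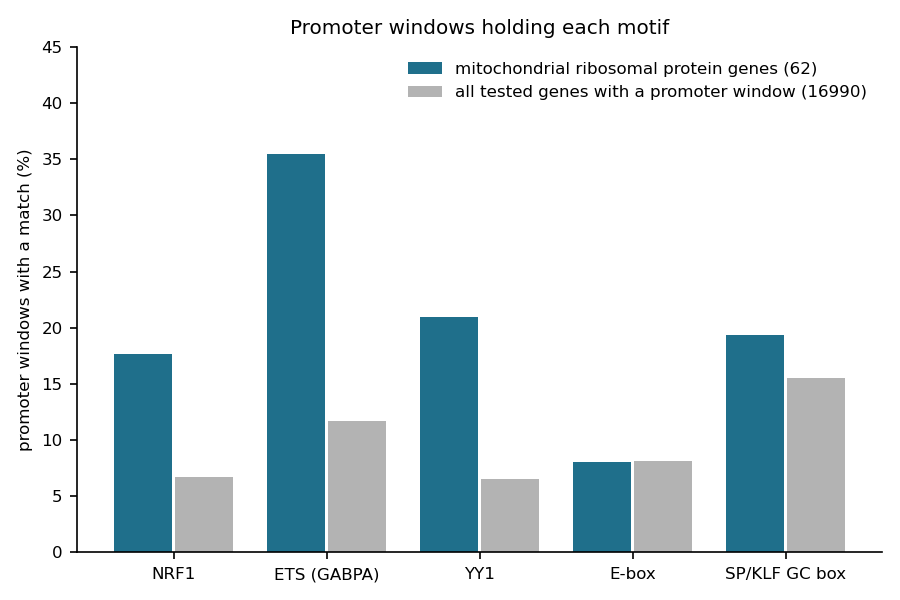
Share of promoter windows (in %) with at least 1 match to each of 5 motifs, in the 62 members with a window and in all 16990 measured genes with a window. The member bars are higher for NRF1 (17.7%), ETS (35.5%) and YY1 (21.0%) than the bars of all genes (6.72%, 11.7% and 6.52%), and the E-box bars are alike (8.06% and 8.18%).

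Signals are log2 values normalized by the authors. They carry an offset for each probe set in each experiment, so levels are compared within an experiment. Signals of different probe sets are set against each other only to rank genes by mean signal, as a rough guide to weak signals. Stk4 checked the Mst1/2 labels and averaged 7.47 ± 0.21 in Mst1/2-KO against 8.33 ± 0.09 in WT CD8+ DCs, 7.55 ± 0.13 against 8.32 ± 0.13 in CD8- DCs, and 7.41 ± 0.09 against 8.51 ± 0.06 in total DCs (SD, n = 4 per sorted group, 3 Mst1/2-KO and 4 WT total arrays). Stk3 was not analysed here. Mapk14, the main p38 gene, was 8.47 ± 0.08 (n = 3) on arrays labelled p38-KO and 8.24 ± 0.26 (n = 4) on their controls, so that its signal did not fall, and Mapk11, another p38 gene, was 5.14 ± 0.12 and 5.37 ± 0.09. The label does not say which p38 gene was deleted, and the position of the probes relative to the deletion is not stated, so these arrays are called by their label. The 8 markers of CD8+ DCs measured averaged 10.74 to 10.95 on WT CD8+ arrays and 7.11 to 7.80 on WT CD8- arrays. In bulk RNA, a different share of cells of a type and a different amount of RNA per cell cannot be told apart.

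Among sorted cells, the median large-subunit signal per array was 7.13 to 7.29 in Mst1/2-KO and 6.91 to 7.12 in WT CD8+ DCs, and 6.94 to 7.16 in Mst1/2-KO and 6.63 to 6.87 in WT CD8- DCs. Within each subset, every Mst1/2-KO array lay above every WT array for the large subunit. The small-subunit median was 6.95 to 7.08 in Mst1/2-KO and 6.74 to 6.99 in WT CD8+ DCs, and 6.42 to 6.90 in Mst1/2-KO and 6.49 to 6.70 in WT CD8- DCs. Here the genotypes overlapped in both subsets, and in CD8- DCs the lowest of all 16 sorted arrays was Mst1/2-KO replicate 2 (6.42). In total DCs the large-subunit median was 7.04 to 7.13 in Mst1/2-KO and 6.68 to 6.89 in WT, and the small-subunit median 6.86 to 6.94 and 6.53 to 6.81, without overlap. In experiment 1 the medians of the groups overlapped. The median of all genes lay between 4.28 and 4.39 on every array.

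**Figure D2:**
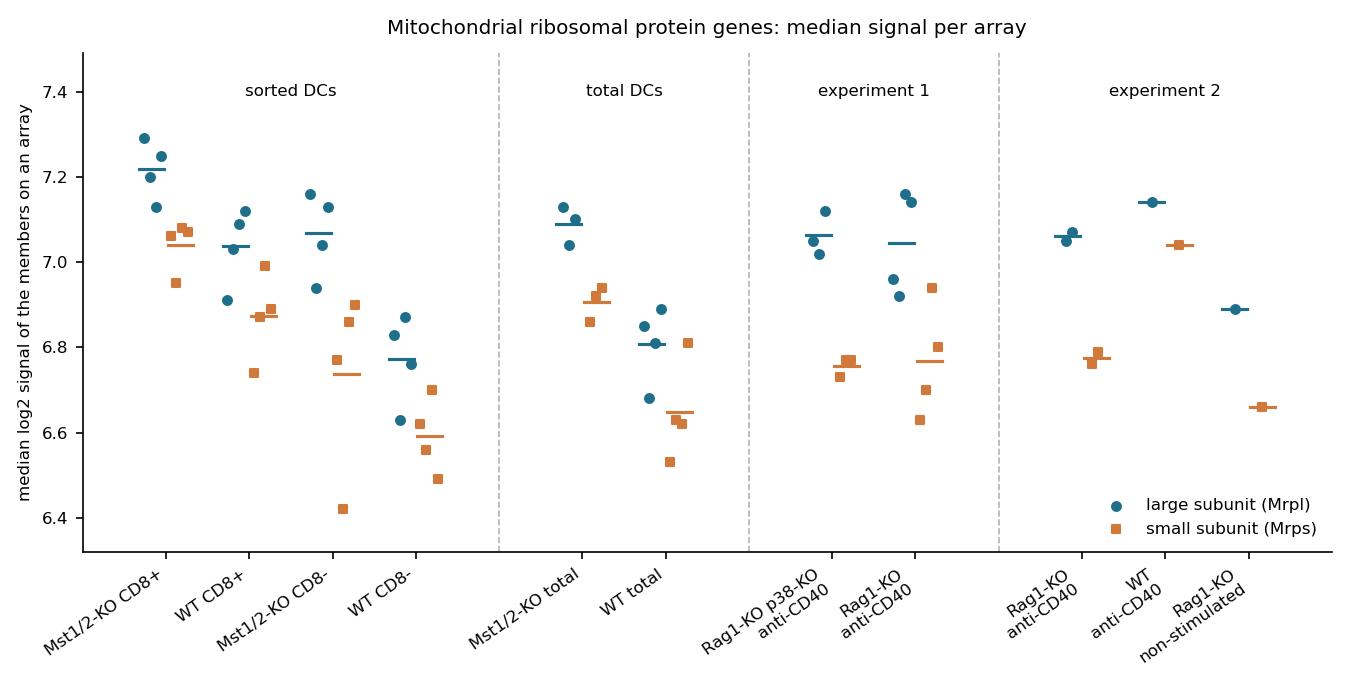
Median log2 signal (y axis) of the 43 large-subunit and 28 small-subunit members on each of the 34 arrays, by group (x axis), with dashed lines between experiments, whose levels are not comparable. Points are arrays and bars the mean of a group. Mst1/2-KO arrays lie above WT arrays for the large subunit in CD8+, CD8- and total DCs.

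The question of the sorted WT arrays is how the DC subsets differ. In WT mice, 27 of 71 mitochondrial ribosomal protein genes rose in CD8+ relative to CD8- DCs and 1 fell. In the large subunit 18 of 43 rose and 1 fell, and in the small subunit 9 of 28 rose and 0 fell, at an adjusted p under 0.05 (limma, Benjamini-Hochberg over all 22180 genes). Of all genes, 11% rose and 10% fell, and of genes with a mean signal above the median gene 19.7% rose and 17.8% fell. The log2 change was above 0 in 38 large-subunit and 22 small-subunit members, with a median of 0.23 in each subunit, against 0.02 over all genes. At an unadjusted p under 0.05, 33 members were higher and 2 lower, where 16.1% of all genes were higher and 13.6% lower. Of genes above the median gene, 25.3% were higher and 23.0% lower by this rule. By place in the ribosome, as grouped here, 3 of 4 members of the L7/L12 stalk rose and 3 of 4 grouped with the catalytic core (Mrpl2, Mrpl3, Mrpl4 and Mrpl16). So did 3 of 7 of the central protuberance, 1 of 7 near the exit tunnel (and 1 fell), 8 of 17 of the small-subunit body and 1 of 8 of the small-subunit head. In the stalk, the other probe sets of Mrpl10 (0.11 ± 0.11) and Mrpl12 (0.30 ± 0.13) did not pass (adjusted p 0.614 and 0.149 over all probe sets). Mrps16 of the body was not called, but its other probe set was higher (0.36 ± 0.09, adjusted p 0.012 over all probe sets). Of members specific to mitochondria, 11 of 26 rose, and of those with bacterial homologues 16 of 44 rose.

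Mrpl42, a mitochondria-specific protein of the large subunit, had signals of 9.41, 9.56, 9.53 and 9.58 in WT CD8+ DCs, against 8.41, 8.47, 8.60 and 8.69 in WT CD8- DCs. All CD8+ arrays lay above all CD8- arrays, a log2 change of 0.98 ± 0.08 (SE), or 1.97-fold, with an adjusted p of 6.32e-08. Mrps27, an RNA-binding small-subunit protein of the pentatricopeptide repeat family, had signals of 6.19, 6.07, 6.09 and 6.25 in WT CD8+ DCs, against 5.33, 4.93, 5.24 and 5.21 in WT CD8- DCs. It rose by 0.97 ± 0.11 (1.96-fold, adjusted p 1.91e-06), again without overlap. Mrpl18, a protein of the central protuberance, had 7.98, 8.08, 8.22 and 8.10 in CD8+ DCs and 7.39, 7.32, 7.66 and 7.48 in CD8- DCs, a change of 0.63 ± 0.09 (adjusted p 5.65e-05). The gap of Mrpl42 and Mrps27 to the next member of their subunit is seen in the ranked plot of WT changes.

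Next in size in the large subunit were Mrpl54 of the stalk base (log2 change 0.59 ± 0.10), Mrpl36 (0.57 ± 0.09), Mrpl51 (0.57 ± 0.09) and Mrpl34 (0.53 ± 0.09), each without overlap between the subsets. In the small subunit they were Mrps5 (0.57 ± 0.10), Mrps18b (0.51 ± 0.07), Mrps28 (0.47 ± 0.10), Mrps34 (0.44 ± 0.11) and Mrps12 of the decoding site (0.43 ± 0.09). Of these 5, Mrps34 alone had overlapping groups, 6.30 to 6.68 in CD8+ DCs and 5.77 to 6.32 in CD8- DCs. The other probe set of Mrps5 changed by 0.29 ± 0.13 (adjusted p 0.173 over all probe sets), and that of Mrps18b by 0.52 ± 0.09 (adjusted p 0.000803). A probe set shared by Mrps34 and Nme3 changed by -0.38 ± 0.15 (adjusted p 0.122). One shared by Mrps27 and 6430562O15Rik changed by 0.18 ± 0.10 (adjusted p 0.331). Mrpl24, next to the exit tunnel, was the member that fell, with 8.63, 8.52, 8.82 and 8.74 in CD8+ DCs and 8.79, 8.95, 9.04 and 8.92 in CD8- DCs (-0.25 ± 0.08, adjusted p 0.0233). Its groups overlapped, and its adjusted p was 0.0564 without CD8- replicate 2, 0.0829 without CD8- replicate 3, 0.0567 without CD8+ replicate 1 and 0.0876 without CD8+ replicate 2. Groups did not overlap for 17 large-subunit and 10 small-subunit members that were higher in CD8+ DCs, where this held for 12.2% of all genes, and for 0 members that were lower, where it held for 10.2%.

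**Figure D3:**
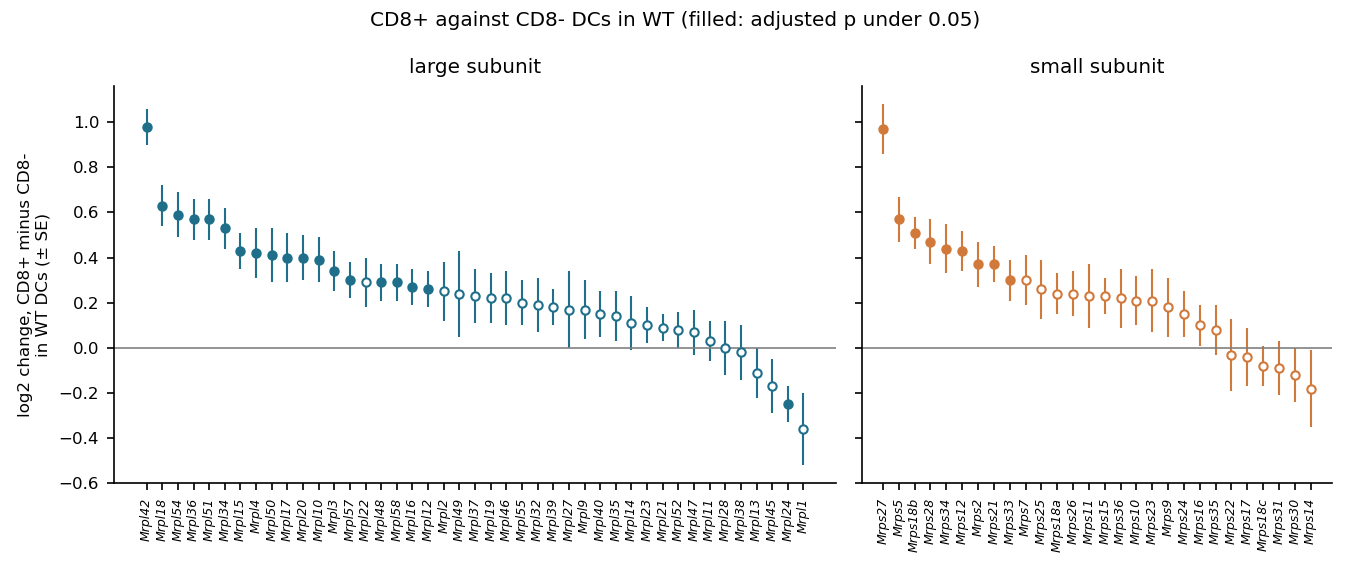
log2 change of CD8+ minus CD8- DCs in WT (y axis, error bars SE) for each member, ranked within its subunit (x axis). Filled points passed an adjusted p of 0.05, and Mrpl42 (0.98) and Mrps27 (0.97) stand above the others.

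In Mst1/2-KO mice the same comparison, made on other arrays, called 10 of 43 large-subunit and 8 of 28 small-subunit members higher in CD8+ DCs and 0 lower, where 9.93% of all genes rose and 9.3% fell. Of genes with a mean signal above the median gene, 17.6% rose and 16.8% fell. The median log2 change was 0.16 in the large and 0.22 in the small subunit, against 0.03 over all genes. Groups did not overlap for 11 large-subunit and 8 small-subunit members that were higher, against 12% of all genes, and for 1 large-subunit member that was lower, against 9.95%. The genes called higher in both genotypes numbered 15, which is 15 of the 27 called in WT and 15 of the 18 called in Mst1/2-KO. Mrpl42 had 9.75, 9.61, 9.69 and 9.67 in Mst1/2-KO CD8+ DCs, against 8.99, 8.74, 8.69 and 8.89 in Mst1/2-KO CD8- DCs (0.85 ± 0.08, adjusted p 3.83e-07). Mrps27 had 6.16, 6.19, 6.40 and 6.35 against 5.70, 5.26, 5.71 and 5.65 (0.69 ± 0.11, adjusted p 9.54e-05). The subsets did not overlap for either gene. Mrps5 changed by 0.55 ± 0.10, Mrpl54 by 0.50 ± 0.10, Mrps34 by 0.48 ± 0.11, Mrpl18 by 0.47 ± 0.09, Mrps18b by 0.40 ± 0.07, and Mrpl51, Mrpl36 and Mrps28 by 0.45 to 0.46. Over all probe sets, the other probe set of Mrps5 had an adjusted p of 0.246, that of Mrpl36 0.152 and that of Mrps18b 0.0488. Mrps15 (0.40 ± 0.08, adjusted p 0.00165) passed the test here and not in WT (0.23 ± 0.08, adjusted p 0.0594). The difference between genotypes is tested below. Mrpl50 (0.44 ± 0.12, adjusted p 0.0161) had an adjusted p of 0.0623 without Mst1/2-KO CD8- replicate 2 and 0.0547 without Mst1/2-KO CD8- replicate 3.

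The subsets also differed in other cell markers. Between WT CD8+ and CD8- DCs, 6 of 6 T cell markers, 5 of 6 NK cell markers, 7 of 8 macrophage and monocyte markers and 4 of 8 B cell markers were lower in CD8+ DCs, and 1 B cell marker was higher. The B cell list averaged 4.38 to 4.47 on WT CD8+ arrays and 5.07 to 5.37 on WT CD8- arrays. Of 21 proliferation genes, 1 rose and 2 fell. Of 8 plasmacytoid DC markers 1 rose and 2 fell. In Mst1/2-KO DCs, 8 of 8 macrophage and monocyte markers, 5 of 6 T cell markers, 3 of 6 NK cell markers and 3 of 8 B cell markers were lower in CD8+ DCs, and 1 B cell marker was higher. There 4 of 8 plasmacytoid DC markers were lower too, with a list mean of 6.98 to 7.09 in Mst1/2-KO CD8+ and 7.83 to 8.22 in Mst1/2-KO CD8- DCs, and 2 of 21 proliferation genes fell. The part of these markers in the subset differences of the ribosomal genes was not tested.

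The comparison of genotypes asks what loss of Mst1 and Mst2 changes in each DC population. In CD8- DCs, 13 mitochondrial ribosomal protein genes rose in Mst1/2-KO mice and 0 fell. They were 10 of 43 in the large subunit and 3 of 28 in the small subunit, where 3.9% of all genes rose and 2.79% fell (7.3% and 4.91% of genes above the median gene). The log2 change was above 0 in 38 large-subunit and 26 small-subunit members, with medians of 0.23 and 0.14, against 0 over all genes. Groups did not overlap for 13 large-subunit and 1 small-subunit member that were higher, where this held for 6.52% of all genes, and for 0 that were lower (5.46%). At an unadjusted p under 0.05, 29 members were higher and 0 lower, where 9.96% and 8.17% of all genes were. Of genes above the median gene, 17.4% were higher and 12.2% lower by this rule. The called genes belong to several sites of the ribosome. In the same grouping they include 1 of 4 stalk members, 1 of 4 grouped with the catalytic core, 1 of 7 of the central protuberance, 1 of 7 near the exit tunnel and 3 of 17 of the small-subunit body. In the small-subunit head 0 of 8 were called, and 0 of 8 had an unadjusted p under 0.05.

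Mrpl15, a large-subunit protein with a bacterial homologue, had signals of 7.47, 7.16, 7.35 and 7.54 in Mst1/2-KO CD8- DCs, against 6.77, 6.94, 6.87 and 6.76 in WT CD8- DCs. All Mst1/2-KO arrays were above all WT arrays, with a change of 0.55 ± 0.08 (1.46-fold, adjusted p 0.00067). In WT CD8+ DCs Mrpl15 lay at 7.17 to 7.35. Mrps18b, a mitochondria-specific protein of the S18 family, had 7.48, 7.37, 7.51 and 7.45 in Mst1/2-KO and 7.11, 6.94, 7.22 and 7.07 in WT CD8- DCs (0.37 ± 0.07, adjusted p 0.00385), and its other probe set changed by 0.53 ± 0.09. Mrpl57, a small mitochondria-specific protein, had 7.01, 6.95, 6.92 and 6.91 in Mst1/2-KO and 6.61, 6.27, 6.61 and 6.61 in WT CD8- DCs (0.43 ± 0.08, adjusted p 0.0046). Mrpl34 had 7.55, 7.33, 7.33 and 7.60 in Mst1/2-KO and 6.83, 6.96, 7.15 and 7.07 in WT CD8- DCs (0.44 ± 0.09, adjusted p 0.00774). The genotypes did not overlap for these 4 genes, and each kept its call when any of the 8 CD8- arrays was left out.

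The other calls depended more on single arrays. Mrpl35 rose by 0.43 ± 0.11, Mrpl51 by 0.36 ± 0.09 and Mrpl23, at the exit tunnel, by 0.34 ± 0.08, without overlap between genotypes. Mrps27 (0.40 ± 0.11) and Mrps28 (0.37 ± 0.10) rose with overlapping groups. These 5 lost their call when at least 1 array was left out, with the highest adjusted p from 0.0512 for Mrpl23 to 0.117 for Mrps27. The remaining 4 called genes, named to complete the list and outside the naming rule here, were Mrpl58, a peptidyl-tRNA hydrolase that frees stalled ribosomes (0.31 ± 0.08), Mrpl12 of the stalk (0.28 ± 0.08), Mrpl16 of the catalytic core (0.28 ± 0.08) and Mrpl42 (0.28 ± 0.08). The adjusted p was 0.0273 for Mrpl58, 0.044 for Mrpl16 and 0.0499 for Mrpl12, whose other probe set did not pass (0.26 ± 0.13, adjusted p 0.384 over all probe sets). These 4 also lost their call without WT CD8- replicate 2, when only Mrpl15, Mrps18b, Mrpl57 and Mrpl34 remained. The number of calls was 4 without WT CD8- replicate 2, 5 without Mst1/2-KO CD8- replicate 1, 5 without Mst1/2-KO CD8- replicate 4, 7 without Mst1/2-KO CD8- replicate 3 and 7 without WT CD8- replicate 4, in each case all higher. With only the 8 CD8- arrays in the fit it was 7.

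**Figure D4:**
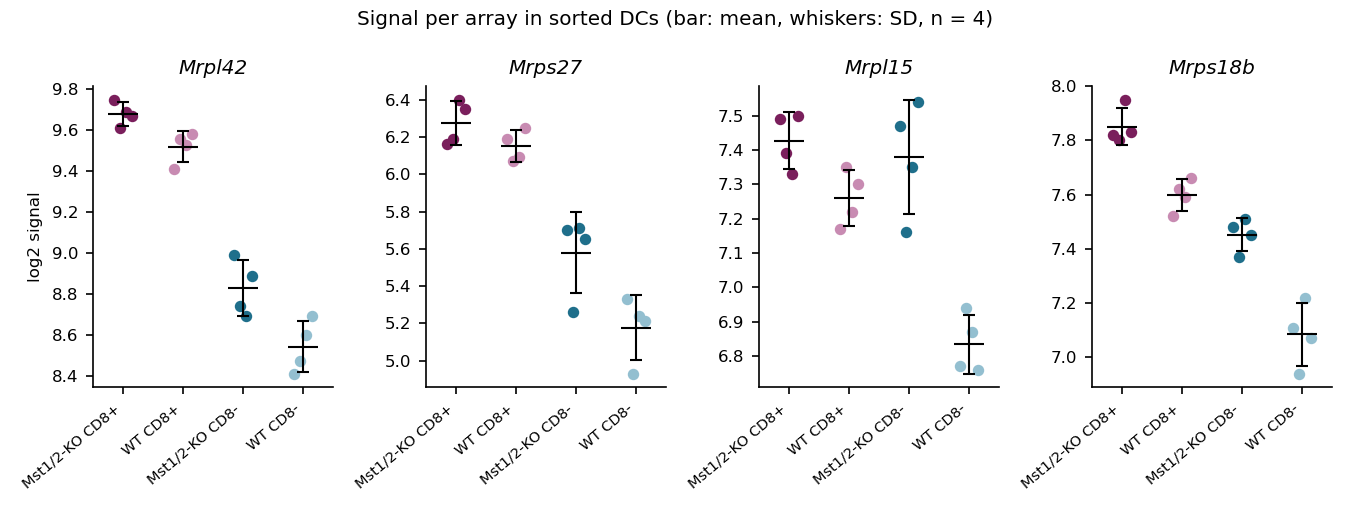
log2 signal (y axis) of Mrpl42, Mrps27, Mrpl15 and Mrps18b on each of the 16 sorted arrays by group (x axis), with the mean and SD of 4 arrays. Mrpl42 and Mrps27 separate the subsets, and Mrpl15 is lower in WT CD8- DCs (6.76 to 6.94) than in the other groups.

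Other lists moved with genotype in the same CD8- arrays. Of 21 proliferation genes 17 rose, with a list mean of 7.98 to 8.28 in Mst1/2-KO and 7.52 to 7.63 in WT. Of 8 plasmacytoid DC markers 4 rose (list mean 7.83 to 8.22 against 6.97 to 7.42), and of 8 CD8+ DC markers 4 rose (7.75 to 8.17 against 7.11 to 7.80). Of 8 CD8- DC markers 4 fell and 1 rose (8.50 to 8.89 against 9.29 to 9.45), and of 8 B cell markers 3 fell (4.63 to 4.85 against 5.07 to 5.37). Of 8 macrophage and monocyte markers 1 rose and 1 fell, and of 6 T cell markers 1 fell. The mean of 3 Y-linked genes was 4.23 to 4.96 in Mst1/2-KO and 5.13 to 5.37 in WT CD8- DCs. The part of these lists in the change of the ribosomal genes was not tested.

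In CD8+ DCs, 0 of the 71 members passed the adjusted test between genotypes, where 0.234% of all genes rose and 0.654% fell (0.442% and 1.26% of genes above the median gene). Their changes lay mostly above 0, in 37 of 43 large-subunit members (median 0.15) and 23 of 28 small-subunit members (median 0.17), against a median of 0 over all genes. At an unadjusted p under 0.05, 15 large-subunit and 8 small-subunit members were higher and 0 were lower, where 5.64% of all genes were higher and 4.93% lower (8.94% higher among genes above the median gene). Groups did not overlap for 8 large-subunit and 4 small-subunit members that were higher, against 3.3% of all genes, and for 0 that were lower, against 3.03%. Mrps30, which sits in the large subunit, had the smallest p, with 6.91, 6.85, 6.73 and 6.98 in Mst1/2-KO and 6.29, 6.32, 6.49 and 6.55 in WT CD8+ DCs (0.46 ± 0.12, adjusted p 0.0902). Mrpl38, of the central protuberance, had 6.18, 6.24, 6.33 and 6.46 in Mst1/2-KO and 5.75, 6.00, 5.93 and 5.85 in WT (0.42 ± 0.12, adjusted p 0.12). Mrps28 had 8.01, 7.98, 8.05 and 8.11 in Mst1/2-KO and 7.71, 7.71, 7.65 and 7.70 in WT (0.35 ± 0.10, adjusted p 0.12). In all 3 genes the genotypes did not overlap. The changes of Mrpl50 (0.35 ± 0.12), Mrpl39 (0.25 ± 0.08) and Mrps18b (0.25 ± 0.07) did not pass the test. Of the proliferation genes 5 of 21 rose, with a list mean of 7.68 to 8.20 in Mst1/2-KO and 7.44 to 7.52 in WT. Of 8 CD8- DC markers 1 (Itgam) rose and 0 fell by the adjusted test. In that list 3 of 8 were above 0 (median -0.2), and at an unadjusted p under 0.05, 1 was higher and 3 were lower. The mean of 3 Y-linked genes was 4.18 to 5.03 in Mst1/2-KO and 4.92 to 5.33 in WT CD8+ DCs. The part of these lists in the shift of the members was not tested.

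The difference between the genotype effects, in CD8- minus in CD8+ DCs, was tested directly, and 0 members passed, where 0.338% of all genes were higher and 0.221% lower (0.649% higher among genes above the median gene). At an unadjusted p under 0.05, 2 large-subunit and 0 small-subunit members were higher and 0 lower, where 4.78% of all genes were higher and 4.37% lower. Mrpl15 had the smallest p, with a difference of 0.39 ± 0.12 (adjusted p 0.199). Mrpl57 differed by 0.27 ± 0.12 and Mrpl34 by 0.24 ± 0.13, and among small-subunit genes Mrps36 by 0.34 ± 0.18, Mrps27 by 0.28 ± 0.15 and Mrps21 by 0.20 ± 0.11, with adjusted p from 0.512 to 0.655. Mrps36 had a mean signal of 4.46 over all arrays, at percentile 51.8 of all genes, and was not shown to be above background. The same contrast, with its sign turned, tests whether the subset difference differs between genotypes, so the calls of 27 and 18 members higher in CD8+ DCs were not shown to differ by genotype for any member.

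In total DCs, 0 members passed the adjusted test between genotypes, where 0.316% of all genes rose and 0.532% fell. The change lay above 0 in 36 of 43 large-subunit members (median 0.18) and 26 of 28 small-subunit members (median 0.13), against a median of 0 over all genes and 0.04 over genes above the median gene. At an unadjusted p under 0.05, 12 large-subunit and 8 small-subunit members were higher and 0 lower, where 7.64% of all genes were higher and 5.56% lower. Mrps10 of the small-subunit head had 6.23, 6.22 and 6.20 in Mst1/2-KO and 5.62, 5.51, 5.77 and 5.90 in WT total DCs (0.52 ± 0.11, adjusted p 0.0679). Mrpl4, which has a bacterial homologue, had 7.87, 7.94 and 7.89 in Mst1/2-KO and 7.49, 7.53, 7.39 and 7.56 in WT (0.41 ± 0.09, adjusted p 0.0723). Both were higher on every Mst1/2-KO array. Mrpl28 (0.36 ± 0.09), Mrps5 (0.45 ± 0.12), Mrpl17 (0.32 ± 0.11) and Mrps28 (0.32 ± 0.09) had adjusted p from 0.0923 to 0.232. With genes above the median gene alone in the fit, Mrpl4 and Mrps10 had adjusted p of 0.0426 and 0.0459. The proliferation list had a mean of 7.89 to 8.06 in Mst1/2-KO and 7.34 to 7.77 in WT, with 0 of 21 called. Of 8 CD8- DC markers 1 fell (list mean 6.73 to 7.35 against 7.52 to 7.98), and of 8 macrophage and monocyte markers 1 fell. Of 8 CD8+ DC markers 0 were called, with 8 above 0, a median of 0.36 and a list mean of 9.46 to 9.53 in Mst1/2-KO and 8.89 to 9.47 in WT. The part of these lists was not tested.

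Across the 3 genotype comparisons, which use different arrays, the change was above 0 in all of CD8+, CD8- and total DCs for 34 of 43 large-subunit members (79.1%) and 22 of 28 small-subunit members (78.6%), against 21.1% of all genes. The members below 0 in all 3 numbered 3 in the large subunit and 0 in the small. They were Mrpl27 (-0.09, -0.13 and -0.23 in CD8+, CD8- and total DCs), Mrpl45, which tethers the ribosome to the inner membrane (-0.05, -0.14 and -0.12), and Mrpl52 (-0.16, -0.05 and -0.08). Mrpl27 had a mean signal of 4.3 over all arrays, at percentile 49.3 of all genes, and was not shown to be above background. None of these changes passed the adjusted test. Whether arrays of the sorted subsets with the same genotype came from the same animals is not given.

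**Figure D5:**
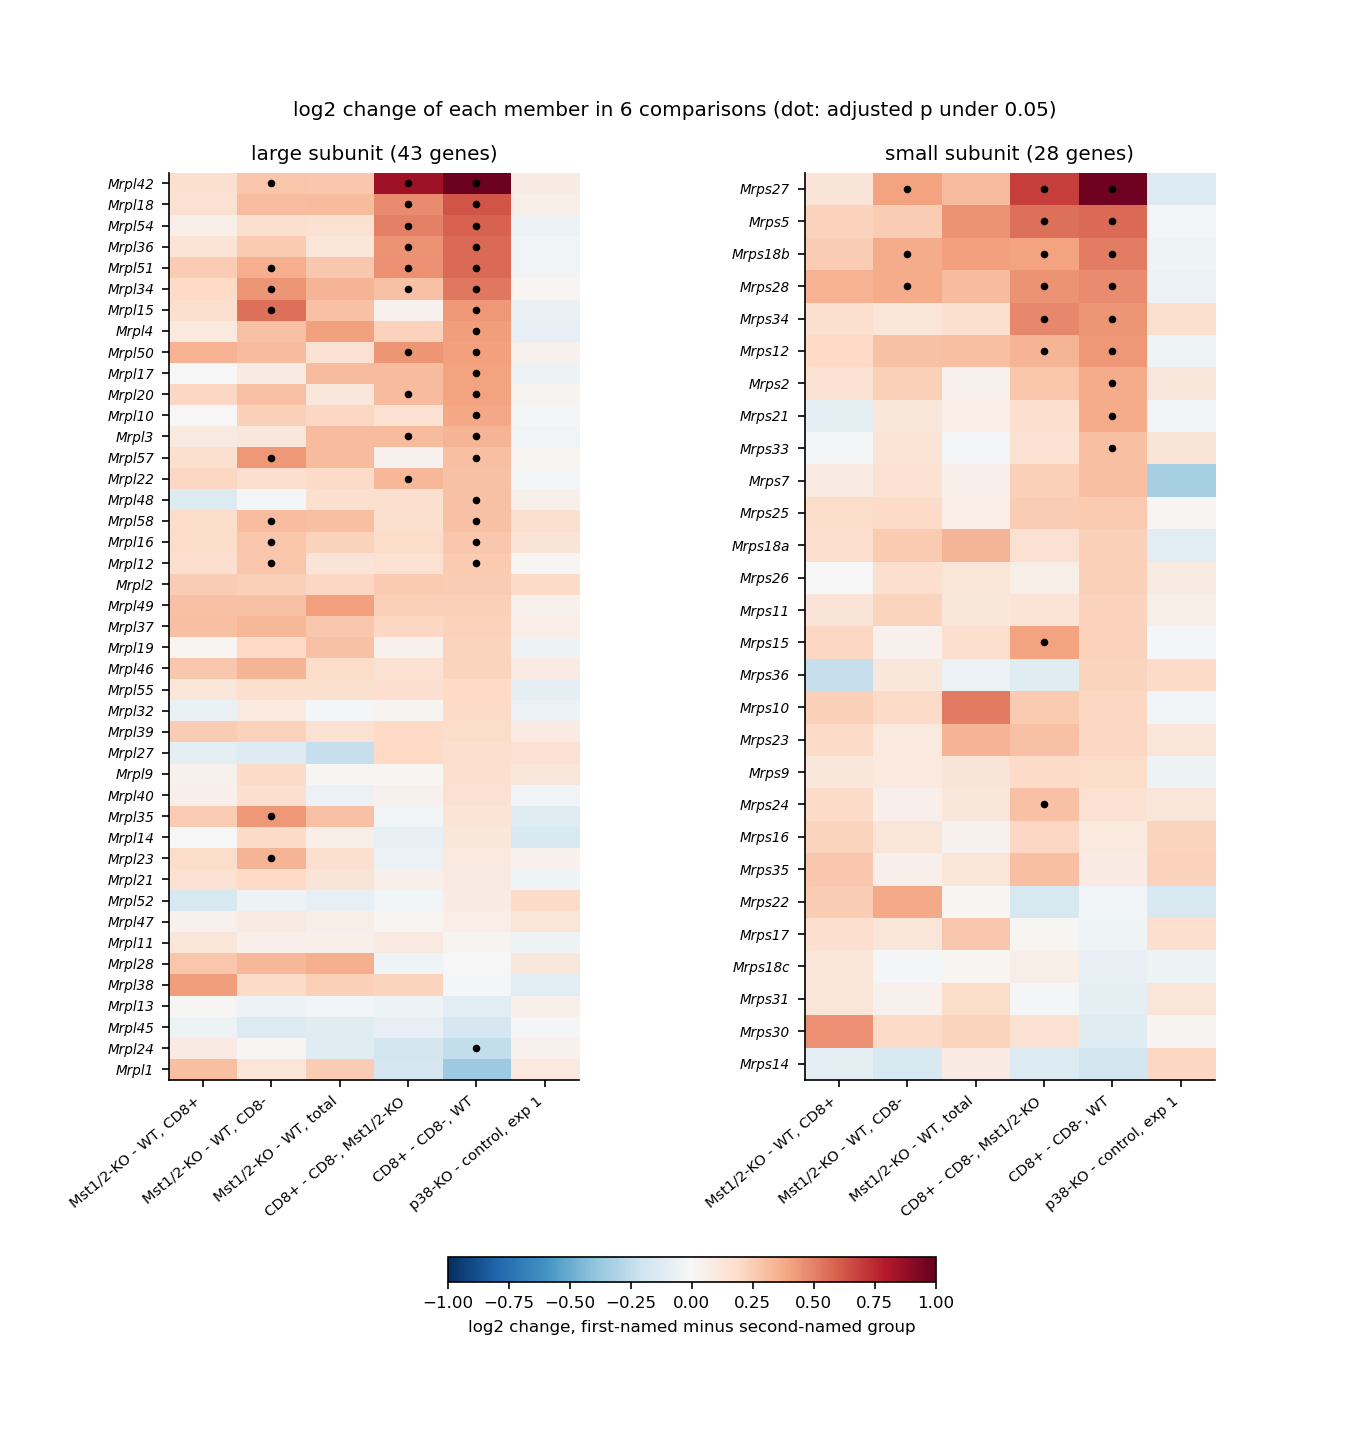
log2 change (colour) of each of the 71 members (rows, ordered by the WT subset change) in 6 comparisons (columns), with a dot where the adjusted p was under 0.05. The Mst1/2-KO minus WT columns in CD8+ and in CD8- DCs both share arrays with the subset columns, so likeness or opposition between them is no result. Dots number 13 in the CD8- genotype column and 0 in the CD8+, total and experiment 1 columns.

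Other genes of mitochondrial translation and respiration were set beside the members. Between WT subsets, 24 of 78 oxidative phosphorylation genes taken by symbol rose in CD8+ DCs and 1 fell (median 0.16), and 13 of 64 cytosolic ribosomal protein genes rose and 0 fell (median 0.07). Of 15 mitochondrial translation factors 3 rose: Mtif3, an initiation factor (6.79 in CD8+ against 5.85 in CD8- DCs, change 0.94 ± 0.17), Tufm, an elongation factor (0.44 ± 0.10), and Mrrf, the recycling factor (0.38 ± 0.11). Of 25 assembly factors 1 rose and 2 fell, among them Nsun4, a methyltransferase of the small-subunit RNA (-0.55 ± 0.11), and of 19 mitochondrial tRNA synthetases 0 changed by the test. Of 9 regulators of mitochondrial genes, Pprc1, a coactivator, rose (0.36 ± 0.08) and Gabpb1, a partner of GABPA, fell (-0.53 ± 0.13). Ppargc1a, which encodes PGC-1alpha, also passed the test as lower, but at 3.27 in CD8+ and 4.08 in CD8- DCs its mean signals lay below the median of all genes (4.28 to 4.39 per array), and it was not shown to be above background. The 3 ribosome subunits with other symbols (Dap3, Ptcd3 and Gadd45gip1) gave 0 calls and a median of 0.23.

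Between genotypes in CD8- DCs, 8 of 78 oxidative phosphorylation genes rose and 1 fell (median 0.11), and 1 of 64 cytosolic ribosomal protein genes rose and 0 fell (median -0.03). Among the 8 was Cox6a2 (3.73 ± 0.17), which is also counted above as a plasmacytoid DC marker. Tufm rose by 0.39 ± 0.10, as the only translation factor of 15 to pass the test. Of the assembly factors, Rcc1l rose by 0.37 ± 0.10 and Mettl15, a methyltransferase of the small-subunit RNA, fell by 0.50 on the log2 scale. Of the 9 regulators, Pprc1 rose by 0.44 ± 0.08, and Ppargc1a was called lower at signals below the median of all genes (3.68 in Mst1/2-KO and 4.08 in WT). The synthetases and the genes of mitochondrial DNA upkeep and transcription gave 0 calls of 19 and of 9. In CD8+ and total DCs none of these lists gave a call between genotypes, and the cytosolic ribosomal proteins had medians of -0.06 and -0.02. The oxidative phosphorylation list had medians of 0.08 in CD8+ DCs (59 of 78 above 0) and 0.14 in total DCs (65 of 78), and the tRNA synthetases 0.18 (14 of 19) and 0.14 (16 of 19), against 0.16 over all members in each. In CD8+ DCs the translation factors had a median of 0.08 (9 of 15 above 0) and the assembly factors 0.03 (18 of 25). The genes of mitochondrial DNA upkeep and transcription had 0.07 (7 of 9) there. In CD8- DCs these 3 lists had medians of -0.02 (7 of 15), 0.01 (14 of 25) and -0.02 (4 of 9). The synthetases had 0.04 in CD8- DCs (12 of 19), against 0.19 over all members.

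Experiment 1 compared arrays labelled p38-KO with controls, both Rag1-/- and given anti-CD40. No change passed the adjusted test, with 0 calls among 71 members as among all 22180 genes (0.0%). The median change was 0.02 in each subunit, and -0.03 to 0.06 in the large subunit when an array was left out. At an unadjusted p under 0.05, 1 large-subunit member and 2 small-subunit members were higher and 1 small-subunit member was lower, where 4.51% of all genes were higher and 3.9% lower. The smallest p was that of Mrps7, of the small-subunit head, with 6.69, 6.71 and 6.75 on arrays labelled p38-KO and 6.94, 6.99, 7.06 and 7.19 on controls (-0.33 ± 0.07, adjusted p 0.367). Mrps35 (0.23 ± 0.09), Mrpl52 (0.19 ± 0.07), Mrpl58 (0.16 ± 0.07), Mrpl27 (0.15 ± 0.06) and Mrps24 (0.12 ± 0.04) had adjusted p from 0.579 to 0.598. Of these, Mrpl27 was not shown to be above background. The 9 neutrophil markers averaged 3.88 to 5.20 on arrays labelled p38-KO and 5.71 to 6.71 on controls, with 0 called, and their part was not tested.

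Experiment 2 has a lone array on one side of each comparison, whose spread was taken from the other groups of experiments 1 and 2. Between anti-CD40 and non-stimulated Rag1-/- DCs 0 members passed, where 0.0271% of all genes rose and 0.00902% fell, and 6 large-subunit and 4 small-subunit members were higher and 1 large-subunit member lower at an unadjusted p under 0.05, where 5.89% of all genes were higher and 7.22% lower. The median change was 0.17 in the large and 0.10 in the small subunit, against -0.01 over all genes. Mrps31 had 6.18 and 6.05 after anti-CD40 and 5.49 without (0.62 ± 0.32), Mrpl34 had 7.20 and 7.62 against 6.88 (0.54 ± 0.16), and Mrpl27 had 4.15 and 4.18 against 4.68 (-0.51 ± 0.11). The signals of Mrpl27 lay near the median of all genes and were not shown to be above background. None of the 3 passed the test. Mrpl38 (0.53 ± 0.18), Mrps10 (0.51 ± 0.17) and Mrps27 (0.48 ± 0.13) were further large changes, with adjusted p from 0.196 to 0.277. On the same arrays 19 of 21 proliferation genes were above 0 (list mean 7.69 to 8.01 after anti-CD40 and 7.46 without), as were 8 of 9 neutrophil markers (6.46 to 6.77 and 5.94), with 0 called in either list, and their part was not tested. Between Rag1-/- and WT DCs, both given anti-CD40, 0 members passed, where 0.243% of all genes rose and 0.122% fell. The median was -0.11 in each subunit, against -0.01 over all genes and -0.06 over genes above the median gene. After quantile normalization it was -0.05 in the large and -0.06 in the small subunit, and after cyclic loess -0.04 in each. Mrps5 had 6.54 and 6.65 in Rag1-/- and 7.04 in WT (-0.45 ± 0.15, adjusted p 0.246), and Mrpl45 had 5.18 and 5.37 in Rag1-/- and 5.68 in WT (-0.41 ± 0.14, adjusted p 0.252). In this comparison 3 of 8 B cell markers fell (list mean 4.15 to 4.19 against 4.96) and 1 of 6 T cell markers fell. The neutrophil list averaged 6.46 to 6.77 in Rag1-/- and 5.08 in WT (9 of 9 above 0), and the NK cell list 5.58 to 5.82 in Rag1-/- and 4.44 in WT (6 of 6 above 0), with 0 called in either. The part of these markers was not tested. The Rag1-/- anti-CD40 arrays serve in both comparisons.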

How the data were processed

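The table used holds the authors' processed values of 41155 probe sets on 34 arrays. These deposited values are on a log2 scale, with RMA and Partek 6.6 named in the submitters' processing notes. Beyond rounding, 99.9% of probe sets share their trailing digits among the arrays of an experiment and 0.00729% across all arrays, so values carry an offset per probe set and experiment. With it, the mean of a probe set differed by a median of 2.86e-10 between experiment 1 and the sorted arrays. This difference was 0.0257 between total and sorted arrays and 0.0689 between experiment 2 and sorted arrays. The step that gave the offset is not stated. The precision rests on the number of arrays, since there is no read depth.

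Probe sets were named through the platform annotation, 23521 of them with exactly 1 symbol, giving 22180 genes. Of the 71 members, 9 had 2 probe sets. Group means were fitted with limma 3.58.1 (lmFit, eBayes) in R 4.3.3, with Benjamini-Hochberg adjustment over all genes and calls at 0.05. The 16 sorted arrays shared a fit, total DCs (7) and experiment 1 (7) had their own, and experiment 2 was fitted with experiment 1 (11 arrays). The code was tested on simulated data. Members and gene lists were chosen with earlier results of these data known. Genes were named by rule: per subunit and comparison up to 6 called in each direction, or the 3 of smallest p where under 3 were called, and in experiment 2 from the 3 largest changes each way. Alternatives were other normalizations, a filter on low signals, averaged probe sets, another variance model, fewer arrays, a replicate block and leaving out each array. Replicate numbers paired WT CD8+ with WT CD8- arrays, whose deviations correlated at 0.13 to 0.34, each array best with its own number. Motifs were searched on both strands of 1 window per gene in RefSeq's promoter table (GRCm38.p6).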

Additional observations from a re-analysis of the deposited data

Results flagged for a closer look

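Of 104 group values of 4 arrays tested, 5 had an array whose gap to its neighbour was large against the range of the group, and chance alone gives about 1 in 20. Mst1/2-KO CD8- replicate 2 was low for Mrps27 (5.26, the others 5.65 to 5.71) and Mrps28 (7.37, the others 7.65 to 7.67). Mst1/2-KO CD8+ replicate 2 had a low small-subunit median (6.95, the others 7.06 to 7.08). Mst1/2-KO CD8- replicate 4 was high for Mrpl54 (8.70, the others 8.44 to 8.45). WT CD8- replicate 2 was low for Mrpl57 (6.27, the others all 6.61).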

How the results depend on the processing

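No called result changed direction under the alternatives run. The calls between genotypes in CD8- DCs were 13 and became 7 with only the 8 CD8- arrays in the fit, 11 to 16 under the other settings and 4 to 14 when an array was left out. In total DCs the 0 calls became 1 with a trended, robust variance model (Mrpl4, adjusted p 0.0462) and 2 with genes above the median gene alone, 69 of the 71 members passing that filter (Mrpl4, Mrps10). The WT subset comparison gave 23 to 32 calls across settings and 20 to 31 with an array left out (28 as reported), and the Mst1/2-KO one 15 to 21 and 12 to 20 (18 as reported, all higher, and 17 higher and 1 lower under cyclic loess). With a replicate block the calls were 30 in the WT subset, 19 in the Mst1/2-KO subset and 11 in the CD8- genotype comparison, and a block within genotype, chosen after seeing the data, gave 28 and 20 for the subsets. The block changed 0 of the 0-call comparisons it was run in. Only the WT subset arrays met the rule for pairing: correlations were 0.09 to 0.21 between Mst1/2-KO subsets, -0.07 to 0.09 (CD8+) and 0.01 to 0.09 (CD8-) between genotypes, 0.05 to 0.13 in total DCs and 0.09 to 0.16 in experiment 1. Every array still correlated best with its own number between Mst1/2-KO subsets and in experiment 1, a hint from the data and not from the design. The cause of these shifts was not tested. In experiment 2 no paired analysis was possible because the groups share fewer than 2 numbers, and quantile normalization moved the Rag1-/- minus WT medians to -0.05 (large) and -0.06 (small) and the anti-CD40 medians to 0.13 and 0.06.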
